A study of Mus musculus with 8 samples.

Results

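The subject is a list of 37 mouse genes for innate sensing: toll-like receptors, NOD-like receptors, RNA helicases, and the adaptors, kinases, caspases and inhibitors that act with them. The genes were chosen by name, with earlier results of these data known. All 37 had a row among the 23420 rows of the table of read counts. They were measured by RNA-seq in dendritic cells from mice that carried a Gata1 knock-out (KO) with LPS treatment, from wild-type (WT) mice with LPS, from KO mice at steady state and from WT mice at steady state, with 2 libraries a group. LPS is bacterial lipopolysaccharide, and Gata1 encodes a transcription factor of erythroid and mast cell lineages. The design names the libraries of a group biological replicates without saying whether they came from separate animals or cultures, so p-values measure only the spread between these libraries, which may be technical. How Gata1 was deleted and in which cells, how the dendritic cells were obtained, the age of the mice, the LPS dose and its duration: none of these is stated in the sources used.

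Toll-like receptors read microbial lipids, proteins and nucleic acids at the cell surface or in endosomes and signal through the adaptor Myd88 or through Ticam1, also called TRIF. Myd88 recruits the IRAK kinases and the ligase Traf6, which lead to NF-kB, while Ticam1 and Traf3 lead to type I interferon. The helicases Ddx58 (RIG-I) and Ifih1 (MDA5) sense viral RNA in the cytosol and signal through Mavs. NOD-like receptors sense cell wall fragments or, as Nlrp3, assemble an inflammasome with Pycard (ASC) and the protease Casp1. In dendritic cells these receptors set off maturation and cytokine release, and Irak3, Tollip, Cd180 and Ly86 are known as brakes on the response.

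Total counts ran from 8005151 to 15495249 per library. Gata1 had 0 reads in all 4 KO libraries, 0 and 1 in the WT LPS libraries and 1 and 10 in the WT steady-state libraries. This level is too low to check the genotype at this depth in the LPS libraries or in WT steady-state library 1. The 10 reads were in WT steady-state library 2, which also held markers of other cells, given below. Which cells those reads came from was not tested. Values are CPM, read counts scaled to a common library size. All 37 members passed the filter on low counts, Tlr5 through its steady-state libraries. The members' CPM summed to 5270 and 5002 in KO LPS libraries, 5388 and 4093 in WT LPS libraries, 2627 and 2554 in KO steady-state libraries, and 2390 and 2195 in WT steady-state libraries. The 9 dendritic cell markers listed (among them Itgax, Flt3 and Cd74) summed to 3745 and 7337 CPM in KO LPS, 12570 and 9411 in WT LPS, 17620 and 16620 in KO steady-state and 23640 and 14670 in WT steady-state libraries. The 7 of 8 listed macrophage markers that were in the table summed to 2039 and 1484 CPM in KO LPS, 874 and 697.5 in WT LPS, 3603 and 3403 in KO steady-state and 3226 and 2455 in WT steady-state libraries. The 5 plasmacytoid dendritic cell markers summed to 879 and 1427 CPM in KO LPS, 1239 and 1092 in WT LPS, 157 and 156 in KO steady-state and 402 and 285 in WT steady-state libraries. Bst2 alone gave 840 and 1405 of these CPM in KO LPS libraries, while Siglech was at 0 in all 4 LPS libraries and Pacsin1 was lower in KO LPS (6.21 and 3.21 CPM) than in KO steady-state libraries (20.3 and 13.5 CPM). Neutrophil markers stayed at or below 38.9 CPM in sum outside WT steady-state library 2, where they reached 249.7, and B cell markers at or below 33.6. Mast cell and basophil markers ran from 10.4 to 135 CPM, where the 135 in WT LPS library 1 was Gata2 alone. WT steady-state library 2, which held the 10 Gata1 reads, also held Prss34 at 55.9, Cpa3 at 16.7 and Mcpt8 at 10.3 CPM. T and NK cell markers reached at most 7.98 CPM. No listed marker in the table was at 0 in all 8 libraries. In these bulk libraries, fewer cells of a type and less RNA per cell cannot be told apart, and the part of these markers in any result was not tested.

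The first question was how LPS moved the sensors within each genotype. A gene was called when edgeR's quasi-likelihood test gave a Benjamini-Hochberg adjusted p under 0.05 over 12442 genes, and differences are given as log2 ± SE. In KO cells LPS moved 11 of the 37 members (29.7%), against 11.8% of all genes tested. Of these, 10 were higher, against 5.3% of all genes, and 1 was lower (Tlr5), against 6.46%. Tlr5 passed the filter through the group where it is high, so that call is no support for a lower response. In WT cells 5 members were called (13.5%), all higher, against 6.49% of all genes called in either direction, 3.0% higher and 3.49% lower. DESeq2 called 18 members in KO, against 22.9% of all genes by that tool, and 19 in WT, against 16%. The LPS and steady-state libraries did not overlap for 28 members in KO, against 72.6% of all genes, with 19 higher (34.4% of all genes) and 9 lower (38.2%). In WT they did not overlap for 25 members, against 56.6% of all genes, with 17 higher (27.5%) and 8 lower (29.1%). All 5 called in WT, Tlr2, Cd14, Ddx58, Casp4 and Irak3, were also called in KO cells, and Tlr6, Dhx58, Ticam2, Irak2, Casp1 and Tlr5 were called in KO cells alone. The test of the difference between the 2 responses called none of them, so those 6 are not shown to respond differently. Most calls rested on single libraries. When each library was left out in turn, every KO call except that of Irak3, and every WT call, was lost in at least 1 refit. The log2 differences of the 5 members called in both genotypes stayed above 0 in these refits. They ran from 1.10 (Tlr2) to 3.22 (Irak3) in KO and from 1.68 (Ddx58) to 4.01 (Cd14) in WT.

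**Figure D1:**
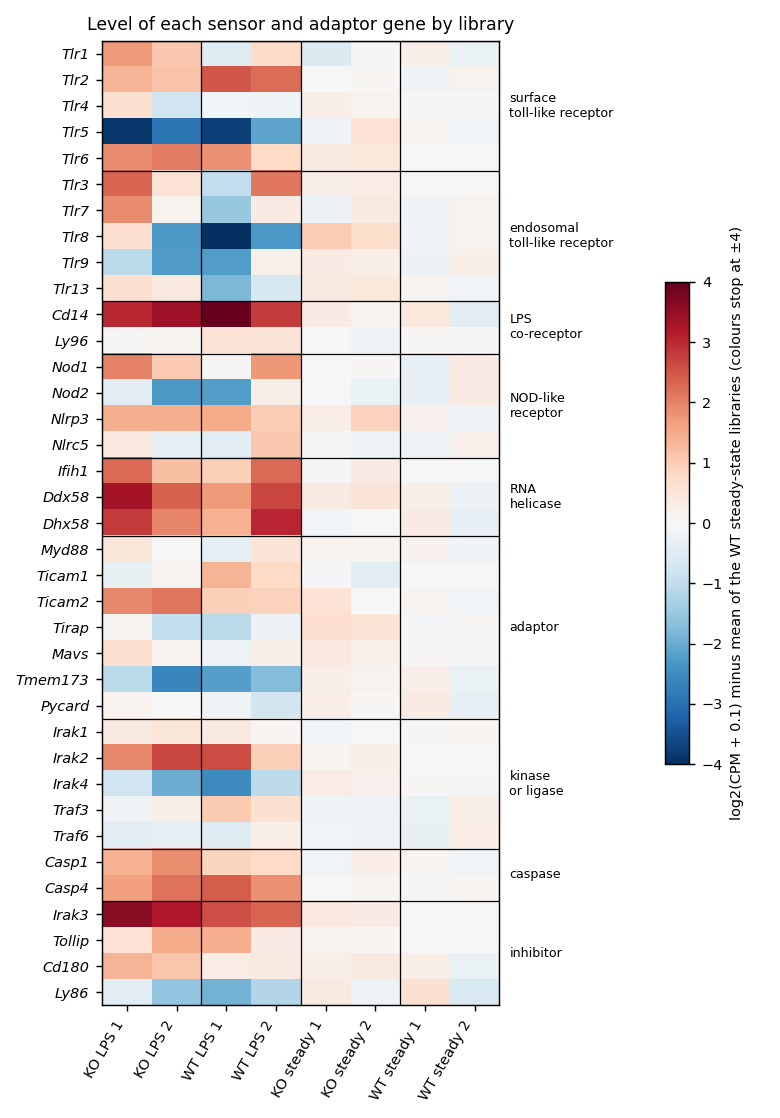
Level of each of the 37 members in each of the 8 libraries, drawn as log2(CPM + 0.1) minus the mean of the WT steady-state libraries (colour, limited at 4 either way), with genes down the page by role and libraries across by group. Cd14, Irak3, Casp4 and the RNA helicases are high in the 4 LPS libraries, and Tlr5, Tmem173 and Irak4 are low in them.

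Among the surface receptors, LPS raised Tlr2, which senses bacterial lipopeptides and lies on chromosome 3 (GRCm38, 83836272 to 83841824, minus strand). Tlr2 was at 125 and 106 CPM in KO LPS libraries, against 47.8 and 50.6 in KO steady-state libraries. In WT it was at 270.0 and 226 CPM with LPS, against 43.9 and 53.4 at steady state. All 4 LPS libraries lay above all 4 steady-state libraries. Tlr2 was 1.23 ± 0.24 higher with LPS in KO (edgeR adjusted p = 0.0218) and 2.35 ± 0.24 higher in WT (edgeR adjusted p = 0.00483). Tlr6, a partner of Tlr2, was at 41.1 and 45.8 CPM in KO LPS libraries, against 14.3 and 15.1 in KO steady-state libraries, a rise of 1.56 ± 0.36 (edgeR adjusted p = 0.0356). WT cells had 40.1 and 19.2 CPM of Tlr6 with LPS, against 11.1 and 11.1 at steady state, and the WT difference of 1.41 ± 0.36 did not pass (edgeR adjusted p = 0.0616). Tlr1, the other partner of Tlr2, shares 15.4% of its 50-base stretches with Tlr6, so reads of the pair may be hard to separate. It was at 52.2 and 33.8 CPM in KO LPS libraries, against 11.0 and 15.5 in KO steady-state libraries (1.70 ± 0.47, edgeR adjusted p = 0.0578), and overlapped between the WT groups.

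Tlr4 is the receptor for LPS itself, and its mRNA did not pass in either genotype. KO libraries had 90.8 and 33.7 CPM with LPS, against 69.6 and 65.0 at steady state, and WT libraries 54.6 and 52.2 with LPS, against 60.5 and 56.3 at steady state. Its KO LPS libraries stood on either side of the steady-state pair. Cd14, which delivers LPS to Tlr4, was the most abundant member per length of exon. It reached 1199 and 1552 CPM in KO LPS libraries, against 187 and 162 in KO steady-state libraries, a rise of 2.98 ± 0.52 (edgeR adjusted p = 0.0164). In WT, Cd14 was at 2455 and 1017 CPM with LPS, against 199 and 109 at steady state, a rise of 3.496 ± 0.54 (edgeR adjusted p = 0.014). Every LPS library lay above every steady-state library. Ly96 (MD-2), the part of the Tlr4 complex that binds LPS, was at 11.4 and 11.6 CPM in KO LPS libraries, against 11.1 and 9.65 in KO steady-state libraries, and at 16.0 and 16.0 in WT LPS libraries, against 11.5 and 10.6 in WT steady-state libraries. Neither Ly96 difference passed.

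Tlr5, the flagellin receptor, was the scarcest member. It was kept by the filter through its steady-state libraries alone, since 0 of its 4 LPS libraries reached the filter's 0.998 CPM, and its values are given as a description. It had 1 and 2 reads in KO LPS libraries, against 34 and 51 in KO steady-state libraries. Scaled to total counts, the KO steady-state level was 21.4 times the KO LPS level, with a 95% exact interval of 7.06 to 106 that covers counting error only. WT libraries had 1 and 10 reads with LPS, against 34 and 37 at steady state, a ratio of 6.91 with an interval of 3.64 to 14.5. The edgeR adjusted p was 0.0273 in KO and 0.0649 in WT.

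The endosomal receptors, which read nucleic acids, had no call in either genotype. Tlr8 was at 128 and 16.4 CPM in KO LPS libraries, against 163 and 130.1 in KO steady-state libraries, and at 2.38 and 16.2 in WT LPS libraries, against 73.8 and 88.0 in WT steady-state libraries. Its WT difference of -3.08 ± 1.05 did not pass (edgeR adjusted p = 0.121). Each of its LPS libraries lay below the steady-state libraries of its genotype. Tlr9, the receptor for unmethylated DNA, was at 34.0 and 14.9 CPM in KO LPS libraries, against 90.8 and 85.5 in KO steady-state libraries (-1.85 ± 0.73, edgeR adjusted p = 0.13). In WT it was at 15.2 and 81.9 CPM with LPS, against 60.9 and 84.2 at steady state, so those groups overlapped. Tlr13, a sensor of bacterial ribosomal RNA in mice, was at 338 and 286 CPM in KO LPS libraries, against 279 and 291 in KO steady-state libraries, and at 62.3 and 140.0 in WT LPS libraries, against 235 and 202 in WT steady-state libraries (-1.11 ± 0.38, edgeR adjusted p = 0.125). The Tlr13 groups overlapped in KO and stood apart in WT. Tlr3, a sensor of double-stranded RNA, was at 29.9 and 8.73 CPM in KO LPS libraries, against 7.06 and 7.17 in KO steady-state libraries, and at 2.91 and 25.2 in WT LPS libraries, against 5.70 and 5.95 in WT steady-state libraries. Tlr3 overlapped between the treatments in WT, and Tlr7 in both genotypes.

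The RNA helicases were high in every LPS library. Ddx58 was at 308 and 158 CPM in KO LPS libraries, against 39.0 and 43.8 in KO steady-state libraries, a rise of 2.49 ± 0.45 (edgeR adjusted p = 0.0181). WT libraries had 100.4 and 198 CPM of Ddx58 with LPS, against 36.5 and 26.0 at steady state, a rise of 2.25 ± 0.45 (edgeR adjusted p = 0.0305). Dhx58 (LGP2), which modulates the other helicases and lacks their signalling domains, was at 155 and 85.0 CPM in KO LPS libraries, against 20.5 and 21.8 in KO steady-state libraries, a rise of 2.51 ± 0.57 (edgeR adjusted p = 0.0356). In WT its difference was 2.42 ± 0.57 and just missed the threshold (edgeR adjusted p = 0.0512), with 57.8 and 184 CPM with LPS, against 27.5 and 17.7 at steady state. Ifih1 was at 147 and 69.5 CPM in KO LPS libraries, against 31.3 and 37.8 in KO steady-state libraries (1.65 ± 0.49, edgeR adjusted p = 0.0696). In WT, Ifih1 was at 58.8 and 145 CPM with LPS, against 30.1 and 30.3 at steady state (1.76 ± 0.49, edgeR adjusted p = 0.0784). For all 3 helicases both LPS libraries lay above both steady-state libraries in each genotype.

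To set levels beside regulatory sequence, promoters of 250 bases before to 50 after the gene start were taken from RefSeq for build GRCm38.p6, and 29 of the 37 members had one. The core of the interferon-stimulated response element, GAAA followed by any 2 bases and GAAA again, was searched on both strands and lies in 3.44% of the 32851 promoters. It lies in 4 of the 38 promoters of members (10.5%), 1 each of Ddx58, Ifih1, Myd88 and Tlr6. The other promoter of Tlr6 holds 0 matches. The third helicase, Dhx58, had no promoter and was not searched, nor were Tlr4, Tlr7, Cd14, Ly96, Nlrc5, Ticam2 and Tmem173. The promoters of the helicases Ifih1 (chr2:62646206-62646505, minus strand) and Ddx58 (chr4:40239776-40240075, minus strand) are shown because both genes were high with LPS, and that of Myd88 (chr9:119339969-119340268, minus strand) because it holds the motif although its level overlapped between the treatments. Capitals mark the motif, read on the gene's strand 33 bases after the start of Ifih1 and 40 before that of Myd88, and on the opposite strand 3 bases after the start of Ddx58.
Ifih1: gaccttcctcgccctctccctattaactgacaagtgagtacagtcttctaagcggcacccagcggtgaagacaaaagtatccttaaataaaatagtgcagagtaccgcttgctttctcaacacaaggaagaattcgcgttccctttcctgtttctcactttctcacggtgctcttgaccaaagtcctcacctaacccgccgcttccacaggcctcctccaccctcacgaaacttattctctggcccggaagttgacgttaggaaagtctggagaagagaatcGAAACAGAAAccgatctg
Ddx58: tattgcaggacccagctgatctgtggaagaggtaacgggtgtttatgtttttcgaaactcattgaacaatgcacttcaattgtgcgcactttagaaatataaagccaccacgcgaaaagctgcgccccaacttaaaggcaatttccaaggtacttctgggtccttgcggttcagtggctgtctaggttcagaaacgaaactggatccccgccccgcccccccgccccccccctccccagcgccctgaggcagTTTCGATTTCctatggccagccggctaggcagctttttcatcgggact
Myd88: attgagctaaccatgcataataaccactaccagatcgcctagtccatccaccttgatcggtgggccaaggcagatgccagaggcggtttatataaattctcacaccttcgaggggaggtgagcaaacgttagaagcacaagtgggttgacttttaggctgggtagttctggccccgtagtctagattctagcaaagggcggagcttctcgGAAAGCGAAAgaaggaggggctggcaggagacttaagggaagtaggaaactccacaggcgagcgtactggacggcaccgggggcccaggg
Myd88 was at 88.9 and 63.8 CPM in KO LPS libraries, against 70.4 and 70.8 in KO steady-state libraries, and at 50.5 and 92.1 in WT LPS libraries, against 72.7 and 56.6 in WT steady-state libraries. The groups overlapped in both genotypes. Of its exon length, 11.3% is overlapped on the other strand by Acaa1a, and the library kit does not mark strand. A match is a description of letters and not a binding site.

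Among the NOD-like receptors no member was called. Nlrp3, which had the smallest p of them in WT, was at 143 and 149 CPM in KO LPS libraries, against 64.0 and 101 in KO steady-state libraries (0.82 ± 0.31, edgeR adjusted p = 0.117). In WT, Nlrp3 was at 151 and 106 CPM with LPS, against 60.2 and 48.0 at steady state (1.24 ± 0.31, edgeR adjusted p = 0.0586). The Nlrp3 groups did not overlap in either genotype. Nod1, a sensor of bacterial peptidoglycan, was at 36.7 and 19.0 CPM in KO LPS libraries, against 9.15 and 9.39 in KO steady-state libraries, and at 9.39 and 30.6 in WT LPS libraries, against 7.24 and 11.5 in WT steady-state libraries. Nod2, which reads muramyl dipeptide, was at 39.5 and 10.7 CPM in KO LPS libraries, against 53.7 and 44.5 in KO steady-state libraries, and at 11.2 and 63.7 in WT LPS libraries, against 42.8 and 66.8 in WT steady-state libraries. Nod1 was thus higher and Nod2 lower in both KO LPS libraries, and both overlapped in WT. Nlrc5, a transactivator of MHC class I genes, overlapped between the treatments in both genotypes, between 50.1 and 144 CPM over the 8 libraries.

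Of the 7 adaptors, edgeR called Ticam2 in KO and none in WT. Ticam2 (TRAM), which links Tlr4 to Ticam1, was at 149 and 172 CPM in KO LPS libraries, against 58.0 and 39.6 in KO steady-state libraries, a rise of 1.72 ± 0.26 (edgeR adjusted p = 0.0116). In WT it was at 76.3 and 75.0 CPM with LPS, against 42.8 and 36.0 at steady state, and 0.94 ± 0.26 did not pass (edgeR adjusted p = 0.074). Its exons are shared over 14.5% of their length with Tmed7, so part of its reads is uncertain. Ticam1 stood at 32.2 and 42.3 CPM in KO LPS libraries, against 37.8 and 29.2 in KO steady-state libraries, which overlapped. In WT, Ticam1 was at 101 and 68.9 CPM with LPS, against 40.1 and 38.9 at steady state (1.10 ± 0.28, edgeR adjusted p = 0.0625). The WT groups of Ticam1 did not overlap. Tmem173 (STING), the adaptor for cytosolic DNA sensing, was at 51.1 and 17.5 CPM in KO LPS libraries, against 127 and 119 in KO steady-state libraries (-1.84 ± 0.49, edgeR adjusted p = 0.0513). WT libraries had 23.1 and 32.5 CPM of Tmem173 with LPS, against 128 and 90.0 at steady state (-1.97 ± 0.49, edgeR adjusted p = 0.0581). All LPS libraries lay below all steady-state libraries, and neither difference passed. Tirap was at 24.1 and 11.5 CPM in KO LPS libraries, against 36.6 and 33.6 in KO steady-state libraries (-0.98 ± 0.42, edgeR adjusted p = 0.151), and at 10.8 and 19.6 in WT LPS libraries, against 22.1 and 23.6 in WT steady-state libraries. It was lower in each LPS library than in either steady-state library of its genotype. Mavs, between 43.9 and 81.2 CPM over the 8 libraries, and Pycard, between 79.2 and 166 CPM, overlapped between treatments in both genotypes.

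Of the kinases, Irak2, which sustains Myd88 signalling, was at 281 and 469 CPM in KO LPS libraries, against 78.4 and 87.2 in KO steady-state libraries, a rise of 2.18 ± 0.53 (edgeR adjusted p = 0.0414). WT libraries had 447 and 144 CPM of Irak2 with LPS, against 75.4 and 72.4 at steady state (2.00 ± 0.53, edgeR adjusted p = 0.0667). Irak2 was above both steady-state libraries in every LPS library. Irak4, the kinase nearest to Myd88, went the other way without passing, at 27.1 and 11.9 CPM in KO LPS libraries, against 58.6 and 53.1 in KO steady-state libraries (-1.51 ± 0.53, edgeR adjusted p = 0.101). In WT it was at 8.33 and 23.1 CPM with LPS, against 49.4 and 46.0 at steady state (-1.58 ± 0.53, edgeR adjusted p = 0.114). No LPS library reached a steady-state library of either genotype. Traf3 was at 69.4 and 90.6 CPM in KO LPS libraries, against 68.8 and 70.6 in KO steady-state libraries, and at 159 and 119 in WT LPS libraries, against 63.8 and 93.2 in WT steady-state libraries (0.82 ± 0.28, edgeR adjusted p = 0.125). Its groups overlapped in KO and stood apart in WT. Irak1, between 135 and 203 CPM over the 8 libraries, and Traf6, between 82.7 and 148 CPM, overlapped between treatments in WT. In KO the groups stood apart, with Irak1 higher (0.47 ± 0.23, edgeR adjusted p = 0.193) and Traf6 lower with LPS (-0.25 ± 0.33, edgeR adjusted p = 0.614). Neither passed.

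Both caspases were high with LPS. Casp4 (caspase-11 in mice), which binds cytosolic LPS, was at 56.9 and 81.6 CPM in KO LPS libraries, against 18.1 and 19.4 in KO steady-state libraries, a rise of 1.88 ± 0.30 (edgeR adjusted p = 0.0127). In WT, Casp4 was at 97.6 and 64.7 CPM with LPS, against 17.2 and 18.9 at steady state, a rise of 2.17 ± 0.30 (edgeR adjusted p = 0.0102). Casp1 was at 127 and 176 CPM in KO LPS libraries, against 45.1 and 58.4 in KO steady-state libraries, a rise of 1.55 ± 0.26 (edgeR adjusted p = 0.015). WT libraries had 89.9 and 83.8 CPM of Casp1 with LPS, against 52.6 and 44.8 at steady state, and 0.83 ± 0.26 did not pass (edgeR adjusted p = 0.0993). All LPS libraries lay above all steady-state libraries for both genes.

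Irak3 (IRAK-M), a kinase relative without activity that restrains the other IRAKs and lies on chromosome 10 (GRCm38, 120141648 to 120202130, minus strand), had the smallest p of any member in KO. It was at 287 and 216 CPM in KO LPS libraries, against 30.7 and 29.8 in KO steady-state libraries, a rise of 3.06 ± 0.25 (edgeR adjusted p = 0.00297). In WT, Irak3 was at 141 and 117 CPM with LPS, against 23.1 and 23.9 at steady state, a rise of 2.46 ± 0.25 (edgeR adjusted p = 0.00464). It was the only member whose KO call held without each of the 8 libraries in turn, with edgeR adjusted p from 0.000992 to 0.0356, and its WT call was lost without WT steady-state library 1 (edgeR adjusted p = 0.0594). Tollip was at 137 and 256 CPM in KO LPS libraries, against 102 and 96.2 in KO steady-state libraries (0.98 ± 0.43, edgeR adjusted p = 0.159). Cd180, a toll-like receptor relative that dampens Tlr4, was at 189 and 159 CPM in KO LPS libraries, against 89.3 and 95.4 in KO steady-state libraries (0.91 ± 0.25, edgeR adjusted p = 0.0591). Ly86 (MD-1), its partner, was at 62.0 and 28.3 CPM in KO LPS libraries, against 110.3 and 73.9 in KO steady-state libraries, and did not pass. In WT, Tollip was at 251 and 115 CPM with LPS, against 90.7 and 93.3 at steady state, Cd180 at 89.9 and 95.0 with LPS, against 88.7 and 61.0 at steady state, and Ly86 at 23.0 and 38.4 with LPS, against 130.4 and 56.3 at steady state. Tollip and Cd180 were higher and Ly86 lower in both LPS libraries of each genotype, and none passed.

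The form of an NF-kB site, GGG followed by any 5 bases and CC, was searched on both strands. It lies in 50.8% of all promoters and in 22 of the 38 promoters of members (57.9%), and 4 or more matches lie in 9.64%. The promoters of Irak3 (chr10:120201548-120201847, minus strand) and Casp4 (chr9:5308599-5308898, plus strand) are shown as examples from the members called in each genotype. Of the other members called in each genotype, Tlr2 holds 7 matches, Ddx58 holds 0 and Cd14 had no promoter to search. RefSeq gives a second promoter for Irak3 (chr10:120202081-120202380), at the outermost start of the gene, which holds 0 matches, and a second one for Casp4, shifted by a few bases, with the same 6. Capitals mark matches on either strand, 5 in Irak3 and 6 in Casp4, several of which overlap.
Irak3: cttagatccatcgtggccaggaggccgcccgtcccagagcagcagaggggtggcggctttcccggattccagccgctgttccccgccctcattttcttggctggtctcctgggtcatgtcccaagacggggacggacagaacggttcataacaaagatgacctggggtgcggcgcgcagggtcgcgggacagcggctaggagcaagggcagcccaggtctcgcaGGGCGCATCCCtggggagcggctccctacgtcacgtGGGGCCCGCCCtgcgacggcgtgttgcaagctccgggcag
Casp4: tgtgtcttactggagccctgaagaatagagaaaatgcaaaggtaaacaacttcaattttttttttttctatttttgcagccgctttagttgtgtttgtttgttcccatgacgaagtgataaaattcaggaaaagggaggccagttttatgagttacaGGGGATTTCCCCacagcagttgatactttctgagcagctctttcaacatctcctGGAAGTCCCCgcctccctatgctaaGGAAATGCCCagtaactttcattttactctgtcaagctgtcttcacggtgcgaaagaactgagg
A match in a motif this common is a description only.

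**Figure D2:**
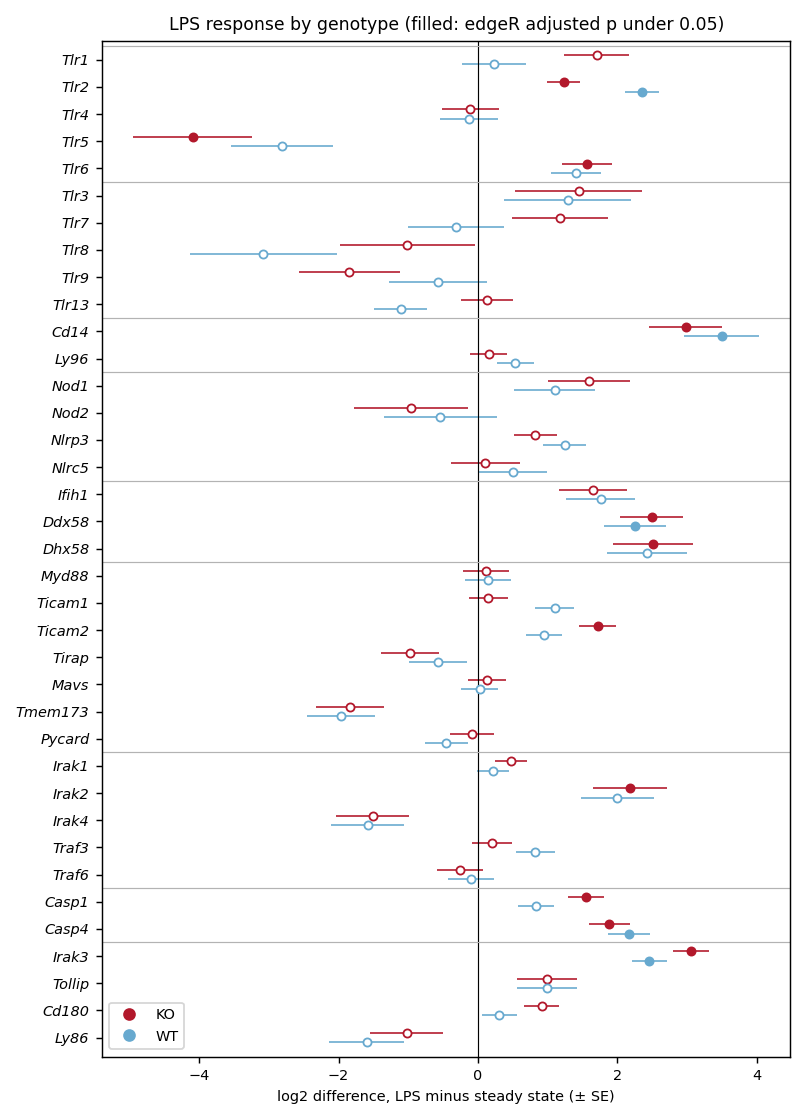
Log2 difference between LPS and steady state for each member, with KO and WT shown separately, bars of SE and filled symbols for genes called by edgeR at an adjusted p under 0.05. Irak3 at 3.06 and Cd14 at 2.98 are the highest in KO, and Tlr5 at -4.09 is the lowest.

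By class, the median log2 difference with LPS in KO was 1.17 for the 19 receptors and sensors, 0.14 for the 14 adaptors and transducers and 0.95 for the 4 inhibitors, against -0.02 over all genes tested. Calls numbered 5 higher and 1 lower among receptors, 4 higher among transducers and 1 higher among inhibitors. In WT the medians were 0.54, 0.18 and 0.65, against 0.00 over all genes, with 3, 1 and 1 called higher. The helicases carried the highest median of any role with more than 2 genes, 2.49 in KO and 2.25 in WT. Assigning Dhx58 to the inhibitors and Cd180 and Ly86 to the receptors moved the inhibitor median to 2.51 in KO and 2.42 in WT. Without KO LPS library 1 the KO receptor median was 0.29. The WT receptor median was -0.10 without WT LPS library 2, and the WT inhibitor median 0.34 without WT LPS library 1. The WT transducer median was 0.38 without WT LPS library 1, 0.08 without WT LPS library 2 and 0.28 without WT steady-state library 2, and the WT helicase median was 1.35 without WT LPS library 2. The medians describe these members, and no test compared the classes.

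The second question was how KO cells differed from WT cells after LPS. No member was called by edgeR, against 0.772% of all genes (96 genes). At an unadjusted p under 0.05 the members numbered 10 and all genes 2108. DESeq2, the other tool run, called 7 members (Tlr2, Tlr8, Tlr13, Ticam1, Ticam2, Irak3 and Cd180), against 8.5% of all genes by that tool. The KO and WT libraries did not overlap for 14 members, against 36.1% of all genes. Of these, 10 were higher in KO, against 18% of all genes (Tlr1, Tlr6, Tlr8, Tlr13, Ticam2, Pycard, Irak1, Casp1, Irak3 and Cd180), and 4 were lower, against 18.1% (Tlr2, Ly96, Ticam1 and Traf3). The total share of 37.8% was close to that of all genes.

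**Figure D3:**
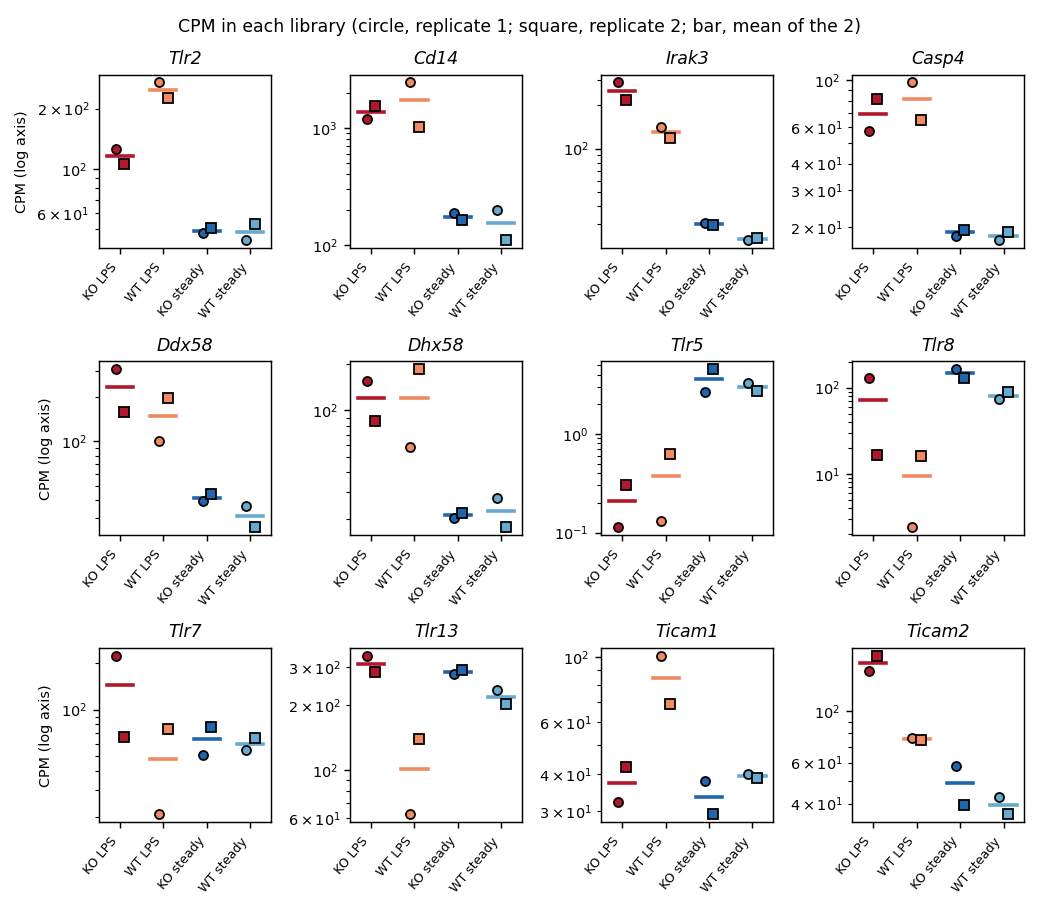
CPM of 12 members in each library on log axes (circle, replicate 1; square, replicate 2; bar, mean of the 2) in KO LPS, WT LPS, KO steady-state and WT steady-state cells. Tlr13 in KO LPS libraries (338 and 286 CPM) lies above its WT LPS libraries (62.3 and 140.0 CPM), as does Ticam2, and Tlr2 and Ticam1 lie below theirs.

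Tlr2 was at 125 and 106 CPM in KO LPS libraries, against 270.0 and 226 in WT LPS libraries, a difference of -1.10 ± 0.23 (edgeR adjusted p = 0.0841). Ticam1 was at 32.2 and 42.3 CPM in KO LPS libraries, against 101 and 68.9 in WT LPS libraries, a difference of -1.19 ± 0.28 (edgeR adjusted p = 0.0988). The lipopeptide receptor and the TRIF adaptor were thus the lower members with the smallest p. Tlr13 was at 338 and 286 CPM in KO LPS libraries, against 62.3 and 140.0 in WT LPS libraries, a difference of 1.62 ± 0.39 (edgeR adjusted p = 0.0997). Ticam2 was at 149 and 172 CPM in KO LPS libraries, against 76.3 and 75.0 in WT LPS libraries, a difference of 1.08 ± 0.26 (edgeR adjusted p = 0.0982). Irak3 was at 287 and 216 CPM in KO LPS libraries, against 141 and 117 in WT LPS libraries, a difference of 0.96 ± 0.24 (edgeR adjusted p = 0.106). These 3, together with Cd180 at 189 and 159 CPM in KO LPS libraries, against 89.9 and 95.0 in WT LPS libraries (0.91 ± 0.25, edgeR adjusted p = 0.134), were higher in both KO libraries without passing. Tlr8 differed most, 2.92 ± 1.04 higher in KO (edgeR adjusted p = 0.216), but its KO libraries were at 128 and 16.4 CPM, against 2.38 and 16.2 in WT LPS libraries, and the closest libraries nearly met. It was 0.77 without KO LPS library 1 and 4.93 without WT LPS library 2.

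The summed dendritic cell markers were lower in both KO LPS libraries than in either WT LPS library, and the summed macrophage markers were higher. The marker Itgax (CD11c) was at 80.3 and 78.8 CPM in KO LPS libraries, against 645 and 214 in WT LPS libraries. Their part in the differences of the sensors was not tested.

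Over the 37 members the median difference between KO and WT with LPS was 0.22, against -0.01 over all genes. Of the members 25 of 37 were above 0, against 6104 of 12442 genes. That count of members was 17 without KO LPS library 1 and 25 without KO LPS library 2. It was 21 without WT LPS library 1 and 28 without WT LPS library 2. The class medians were 0.19 for receptors, 0.26 for transducers and 0.73 for inhibitors. Without KO LPS library 1 the receptor median was -0.44 and the transducer median -0.08. The receptor median was 0.46 without KO LPS library 2, -0.14 without WT LPS library 1 and 0.89 without WT LPS library 2, and the transducer median was 0.41, 0.09 and 0.40 without the same 3 libraries. The median of all members was -0.12 without KO LPS library 1, 0.50 without KO LPS library 2 and 0.65 without WT LPS library 2. The other assignment of roles gave 0.34 for receptors and 0.11 for inhibitors. Cd14 was at 1199 and 1552 CPM in KO LPS libraries, against 2455 and 1017 in WT LPS libraries, and overlapped. Tlr4 overlapped as well.

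The third question was how the genotypes differed at steady state. In the edgeR fit of all 8 libraries no member was called and none had an unadjusted p under 0.05. DESeq2 called no member. Of all genes, edgeR called 0% and DESeq2 0.217%, and 327 genes had an unadjusted p under 0.05 by edgeR. Fitted on only the steady-state groups, edgeR gave 3 members an unadjusted p under 0.05 and called none. The libraries did not overlap for 17 members, against 45.5% of all genes: 16 were higher in KO, against 22.1% of all genes, and Ticam1 was lower, against 23.4%. The median difference was 0.16 over the members and -0.01 over all genes, and the members' median was 0.25 without WT steady-state library 1. Tlr8 was at 163 and 130.1 CPM in KO steady-state libraries, against 73.8 and 88.0 in WT steady-state libraries (0.86 ± 0.96, edgeR adjusted p = 1). Tirap, the adaptor that brings Myd88 to Tlr2 and Tlr4, was at 36.6 and 33.6 CPM in KO steady-state libraries, against 22.1 and 23.6 in WT steady-state libraries (0.62 ± 0.41, edgeR adjusted p = 1). Irak3 was at 30.7 and 29.8 CPM in KO steady-state libraries, against 23.1 and 23.9 in WT steady-state libraries (0.36 ± 0.24, edgeR adjusted p = 1). These 3 members were higher in both KO libraries than in either WT library, and none passed. The SE of each difference rests on the scatter of all 8 libraries, LPS ones included, so it does not describe steady-state scatter alone. Member scatter was smaller without LPS: the median SD of log2 levels was 0.0988 for KO and 0.179 for WT steady-state libraries. The LPS libraries gave 0.44 for KO and 0.611 for WT.

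**Figure D4:**
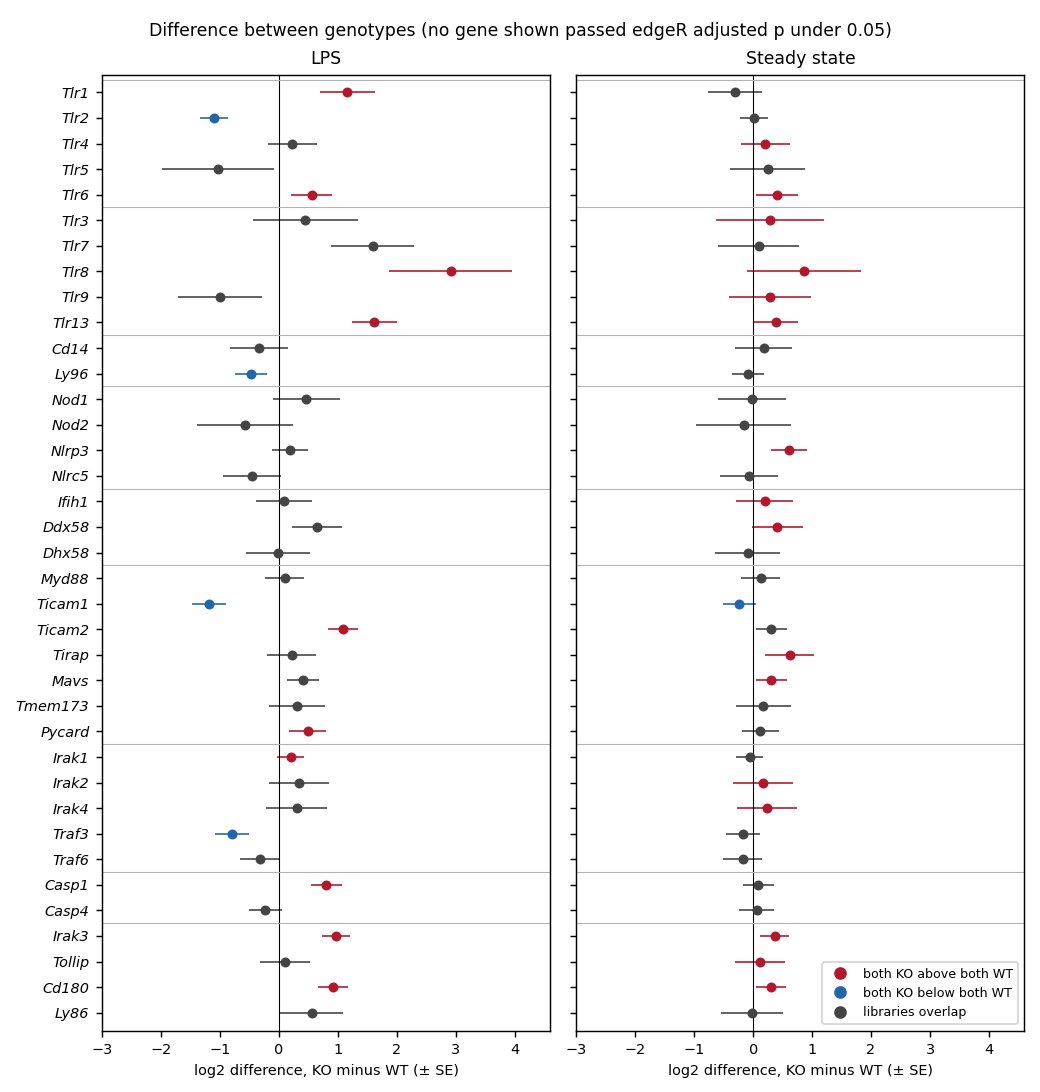
Log2 difference between KO and WT for each member with LPS and at steady state, with bars of SE and colours for members whose KO libraries both lay above (red) or below (blue) both WT libraries. With LPS the differences run from -1.19 for Ticam1 to 2.92 for Tlr8, and no gene shown passed an edgeR adjusted p of 0.05.

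The test of whether LPS acted differently in KO and WT cells called no member and 0% of all genes (0 of 12442), with 2 members, Tlr2 and Ticam1, and 797 genes at an unadjusted p under 0.05. DESeq2 called no member, against 0.852% of all genes. For Tlr2 the KO response was 1.12 ± 0.33 smaller (-1.12, edgeR adjusted p = 0.609). For Ticam1 the difference of responses was -0.95 ± 0.40 (edgeR adjusted p = 0.765). These were also the lower members with the smallest p in KO against WT cells after LPS, where neither was called. The comparisons share the LPS libraries. Tlr13 (1.24 ± 0.54) and Tlr8 (2.06 ± 1.38) had positive differences of responses (edgeR adjusted p = 0.792 and 0.938).

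The libraries of a group differed more after LPS than at steady state. Between the KO LPS libraries 11 members differed more than 2-fold (29.7%, against 19.9% of all genes), and between the WT LPS libraries 17 did (45.9%, against 31.8%). At steady state the counts were 0 in KO, against 4.76% of all genes, and 1 in WT, against 6.59%. Over all genes tested, the differences between replicates 1 and 2 correlated at -0.599 between KO LPS and WT LPS libraries. An opposite order was thus not particular to the members. Of the 37 members, 19 were higher in KO LPS library 1 and WT LPS library 2, 12 were higher in KO LPS library 2 and WT LPS library 1, and 6 kept the same order. Tlr3, Tlr7, Tlr8, Tlr9, Nod2, Ifih1 and Irak4 differed over 2-fold in both genotypes in the first way. Tlr7, a receptor for single-stranded RNA, showed this at 222 and 66.1 CPM in KO LPS libraries, against 20.9 and 74.4 in WT LPS libraries. Tollip ran the other way, at 137 and 256 CPM in KO LPS libraries, against 251 and 115 in WT LPS libraries. Differences that were not called moved with such libraries. In WT the LPS difference of Irak2 was 0.97 and that of Tlr6 0.80 without WT LPS library 1, and that of Dhx58 was 1.35, of Ifih1 0.96 and of Tlr8 -5.08 without WT LPS library 2. In KO the LPS difference of Tmem173 was -2.82 and that of Ifih1 1.01 without KO LPS library 1. Of these, Dhx58 and Tlr8 in WT and Tmem173 in KO were called by edgeR with that library left out, and the others were not.

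**Figure D5:**
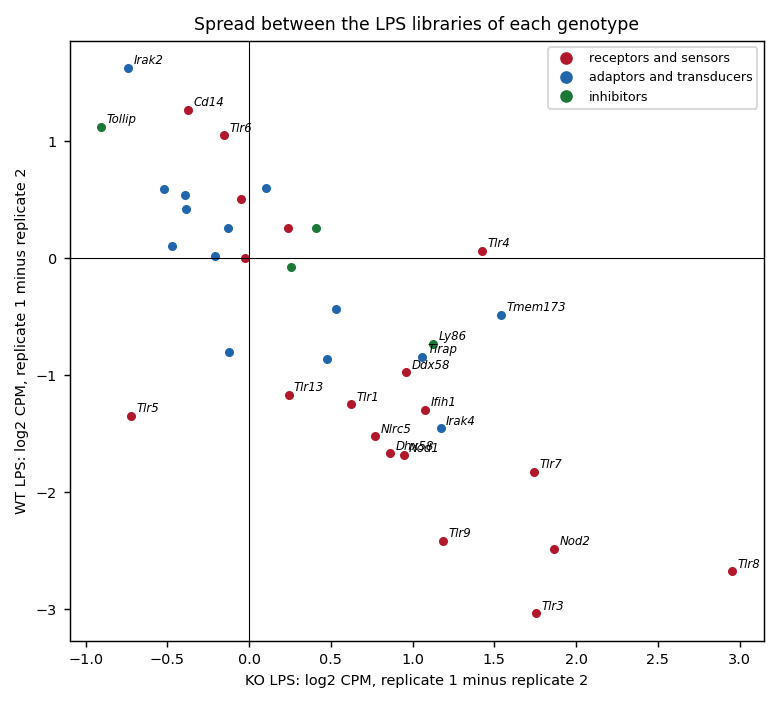
Difference in log2 CPM between replicate 1 and replicate 2 with LPS, in KO on the horizontal axis and in WT on the vertical axis, with 1 point per member, coloured by class. The 19 members at the lower right were higher in KO LPS library 1 and WT LPS library 2, with Tlr8, Nod2, Tlr3 and Tlr7 farthest out, and the 12 at the upper left were the reverse.

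Of 60 other genes of these pathways, 56 were tested. In KO cells edgeR called 12 higher with LPS, against 5.3% of all genes, and 4 lower, against 6.46%. Irf7, the interferon regulatory factor downstream of the endosomal receptors, was at 1253 and 2262 CPM in KO LPS libraries, against 12.6 and 19.0 in KO steady-state libraries, a rise of 6.80 ± 0.61 (edgeR adjusted p = 0.00297). Il1b, a substrate of Casp1, rose by 4.30 ± 0.46 (edgeR adjusted p = 0.00417), Zbp1, a nucleic acid sensor, by 2.97 ± 0.33 (0.00447) and Naip2, a sensor of bacterial secretion systems, by 1.97 ± 0.27 (0.0081). The lower genes were Tlr12, Tlr11, Nlrp10 and Sigirr. Tlr12, Tlr11 and Nlrp10 passed the filter through their steady-state libraries, with at most 1 of 4 LPS libraries at 0.998 CPM, so their calls are no support for a lower response. Tlr11 and Tlr12 sense the protozoan profilin in mice, and Tlr12 had 6 and 1 reads in KO LPS libraries, against 337 and 205 in KO steady-state libraries. Tlr11 had 1 and 0 reads in KO LPS libraries, against 77 and 90 in KO steady-state libraries. Sigirr had 40 and 7 reads in KO LPS libraries, against 393 and 293 in KO steady-state libraries. Its log2 difference ran from -4.71 to -2.66 over leaving out each library, and its call was lost in some of these refits. In WT cells it called 8 higher, against 3.0% of all genes, and 3 lower, against 3.49%. The higher genes with the smallest p were Il1b (5.08 ± 0.48, edgeR adjusted p = 0.00441), Irf7 (6.04 ± 0.59, 0.00454), Zbp1 (2.99 ± 0.33, 0.00542) and Ripk2 (2.36 ± 0.34, 0.011), the kinase of Nod1 and Nod2. The lower ones were Lbp, Nlrp10 and Nlrp1b. Lbp and Nlrp10 passed the filter through steady-state libraries alone, so their calls are no support for a lower response. Nlrp1b had 2 and 38 reads in WT LPS libraries, against 273 and 253 in WT steady-state libraries. Its log2 difference ran from -6.35 to -3.25 over leaving out each library, and its call was lost in some of these refits.

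After LPS, KO cells had 2 of the 56 higher than WT cells by edgeR, against 0.281% of all genes, and none lower, against 0.49%. Naip6, of the same family as Naip2, was at 31.3 and 31.5 CPM in KO LPS libraries, against 7.93 and 8.85 in WT LPS libraries (1.90 ± 0.30, edgeR adjusted p = 0.0445), and near-identical family members can share its reads. Tifa, which links bacterial sugar sensing to Traf6, was at 151 and 123 CPM in KO LPS libraries, against 50.5 and 49.9 in WT LPS libraries (1.44 ± 0.23, edgeR adjusted p = 0.0453). Both calls were lost without 7 of the 8 libraries, all but WT LPS library 1. No gene of the 56 was called at steady state or in the difference of responses.

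Levels between genes were compared as CPM per kb of exon, where the length merges all exons that GENCODE lists for a gene. For Pycard this gave 3800 bases, which is longer than the whole gene in RefSeq (127991373 to 127993867). The order below Cd14 can therefore change with the exon lengths used. At steady state, Cd14 led in WT with 88.9 CPM per kb, ahead of Tlr13 at 50.8, Tmem173 at 39.8, Pycard at 35.8 and Casp1 at 32.6, and the lowest were Tlr5 at 0.630, Tlr3 at 1.12 and Nod1 at 1.85. With LPS in KO the order was Cd14 at 794, Casp1 at 101, Irak2 at 85.0, Tlr13 at 72.4 and Irak3 at 68.5 CPM per kb. With LPS in WT it was Cd14 at 1003, Tlr2 at 82.3, Irak2 at 66.97, Casp1 at 58.0 and Dhx58 at 36.97 CPM per kb. Tlr5 was the lowest in all 4 groups. The order below Cd14 rests on 2 libraries a group, and neighbours such as Tlr13 and Irak3 in KO LPS libraries, at 78.4 and 66.3 against 78.1 and 58.9 CPM per kb, did not differ beyond their spread.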

How the data were processed

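The authors deposited whole-number read counts for 23420 genes in 8 libraries, not normalized. Tools in the submitters' processing notes are TopHat2 2.0.8, Subread 1.4.3 with featureCounts, and edgeR 3.6.8, on build mm10, with no role stated. The strand setting and the treatment of reads that match several genes are not stated. Groups and replicate numbers came from sample titles.

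In R 4.3.3, edgeR 4.0.16 kept 12442 genes (filterByExpr, minimum count 10, minimum total 15), applied TMM scaling and a quasi-likelihood F test with 1 coefficient per group over all 8 libraries, which left 4 residual degrees of freedom. Tests were two-sided in 5 comparisons, with Benjamini-Hochberg adjustment over all genes. The procedure was tested on simulated data. Alternatives were RLE and upper-quartile factors, other filters, DESeq2 1.42.0, a replicate block, only the groups compared, other roles and leaving out each library.

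Members, roles, pathway genes and markers were chosen with earlier results of these data known. All members are named, and of the pathway genes up to 4 called in each direction with the smallest adjusted p. Gene positions and promoters come from RefSeq for GRCm38, the assembly of mm10. Exon lengths, exon overlaps and shared stretches come from GENCODE.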

Additional observations from a re-analysis of the deposited data

How the results depend on the processing

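RLE factors, upper-quartile factors and a minimum of 1 CPM in 2 libraries as filter left each count of called members within 1.5 times its value. In KO against WT with LPS the count of 0 became 7 with DESeq2, against 8.5% of all genes, and 1 without a filter (Tlr13). For LPS in KO the count of 11 became 18 with DESeq2, against 22.9% of all genes. For LPS in WT the count of 5 became 19 with DESeq2, against 16% of all genes, 16 without a filter and 2 with only the groups compared. For settings other than DESeq2, the replicate block included, the share of all genes called is not given here. Those counts therefore do not set the members apart from the whole table. The cause was not tested. Calls also changed over leaving out each library. A left-out library leaves its group with 1, assumed to vary like the others, and fewer degrees of freedom. With the replicate number as a block, LPS in KO had 7 called and LPS in WT 4, and no member was called in the other comparisons. Same-numbered libraries deviated with correlations of -0.599 (KO and WT with LPS), 0.166 (KO and WT at steady state), 0.113 (LPS and steady state in KO) and 0.260 (in WT), and the labels do not say that a number marks a shared animal or day, so a pairing is not shown by these values. The crossed pairing of the LPS groups, chosen after seeing the data, called 0 members in KO against WT with LPS.

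Some log2 differences changed sign over leaving out each library. Signs were followed for selected members in each comparison, so the list here is not complete. In KO against WT with LPS, Tlr4 ran from -0.67 to 0.75 and Cd14 from -0.83 to 0.43. For LPS in KO, Tlr4 ran from -0.9996 to 0.41 and Nlrc5 from -0.34 to 0.42. For LPS in WT, Tlr7 ran from -1.52 to 0.32, Tlr9 from -2.26 to 0.18, Tlr1 from -0.54 to 0.73, Tlr3 from -1.001 to 2.12 and Nlrc5 from -0.46 to 1.07. The difference of responses of Tlr8 ran from -0.10 to 4.07. At these depths Tlr5, with 1 to 10 reads in LPS libraries, is the member most limited by counting.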
